A study of Mus musculus with 47 samples.

Results

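Neuronal microtubule-binding proteins are described here as 10 genes in P19 mouse embryonal carcinoma cells, before differentiation and as neurons form. The members were the 3′ untranslated region (3′ UTR) rows whose RefSeq mRNA name maps to Map2, Map1b, Mapt, Dcx, Stmn1, Stmn2, Stmn3, Stmn4, Crmp1 or Dpysl3. They comprised 24 of the 28190 mRNA transcripts measured, for 10 of 18850 named genes. Transcripts of 1 gene share most of their 3′ UTR reads, so 1 transcript per gene, that with the most covered T positions, is described.

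The study profiled P19 cells by SLAM-seq, in which 4-thiouridine (4sU) built into new RNA is read as T>C conversions in 3′ end libraries. Undifferentiated cells (D0) were compared with cells after 6 days (D6) in NDiff 227 medium with 500 nM retinoic acid, which drives these cells to a neuronal fate. The catabolic assay labeled RNA with 4sU for 15 h and then chased it with 10 mM UTP, and the anabolic assay followed the uptake of 4sU. Another passage of the study's methods gives a shorter labeling time before the chase, so 15 h here names that time point, and no rate or share was computed from the number of hours. The dose of 4sU was 20 µM at D0 and 500 µM at D6. State and dose therefore cannot be told apart where labeling is compared between the states, in absolute rates or in shares and slopes. Time points were 0, 3, 6 and 9 h in the study's text, while the labels write 0, 1, 3 and 9. There were 47 libraries in 16 groups of 3, except for 2 libraries at the third time point of the D6 chase. P19 cells are 1 cell line. The study's text calls the replicates of its SLAM-seq plots biological, while the labels number the libraries and name no culture, and p-values measure the spread between these libraries.

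Neurons build long, stable processes on microtubules, and the proteins studied here set how those polymers are bundled, spaced or taken apart. Map2 marks dendrites, Mapt (tau) marks axons, and Map1b is the structural microtubule-associated protein (MAP) of growing axons. Dcx, doublecortin, binds the microtubule lattice of migrating young neurons. Stathmins (Stmn1 to Stmn4) bind free tubulin and favor disassembly, with Stmn1 found in many dividing cells and the other three chiefly in neurons. Collapsin response mediator proteins (CRMPs, here Crmp1 and Dpysl3) bind tubulin and act downstream of guidance cues in the growth cone. The study itself used Map2 to follow differentiation.

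The annotated 3′ ends are shown first, because the libraries count each mRNA at its 3′ end. Sequence was read from the GENCODE M21 transcripts of the same assembly (GRCm38, mm10) for 8 genes, in which the number of T bases equalled that in the deposited rows. For 7 genes an AATAAA polyadenylation signal was found within the last 60 bases of the 3′ UTR, and the 30 bases around it are given 5′ to 3′ on the transcribed strand, with each copy of the signal in capitals.
Map2 (chr1:66442550-66442579, plus strand): attgttttgcaaAATAAAattgcttgtcac
Map1b (chr13:99421473-99421502, minus strand): actcagttccacAATAAAatacaaagtggc
Mapt (chr11:104332061-104332090, plus strand): tttggaAATAAAgttattactctgAATAAA
Dcx (chrX:143855844-143855873, minus strand): tcattttccaaaAATAAAatttgatttcaa
Stmn1 (chr4:134473800-134473829, plus strand): acttgaatggttAATAAActgcacagtgct
Stmn2 (chr3:8561567-8561596, plus strand): caagctgtgatgAATAAAgaattggagttc
Stmn3 (chr2:181306462-181306491, minus strand): gttggcaaccttAATAAAtctagtggcagt

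Stmn4 held no AATAAA in the last 300 bases of its 3′ UTR, where 70.1% of the 11797 windows of this length that could be read held one on the transcribed strand. The stretch printed for Mapt held 2 copies, which started 24 and 6 bases before the annotated end. In the other 6 genes the signal started 20 to 32 bases before it.

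The 3′ UTRs ranged widely in length, from 305 bases in Stmn3 and 440 in Stmn1 to 4342 in Map1b and 7709 in Dcx. The AU-rich pentamer ATTTA, searched on the transcribed strand, occurred 13 times in the 3′ UTRs of Map1b and of Dcx, 8 times in Map2, 3 times in Mapt, 2 times in Stmn2 and 1 time in Stmn4. Neither Stmn1 nor Stmn3 held it. Within the last 300 bases it occurred only in Stmn2 and Stmn4 of the 8 genes, against 44.1% of all windows. The Pumilio element TGTANATA occurred in Dcx (2 times), Map1b (1 time) and Stmn2 (1 time), and in none of the 8 genes within the last 300 bases (9.88% of all windows). These are matches of letters and not measured sites.

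The mm10 positions of the 3′ UTR rows were chr1:66439008-66442583 for Map2, chr13:99421464-99425805 for Map1b, chr11:104328188-104332090 for Mapt and chrX:143855842-143863550 for Dcx. Those of the stathmins were chr4:134473404-134473843 for Stmn1, chr3:8560326-8561604 for Stmn2, chr2:181306459-181306763 for Stmn3 and chr14:66358700-66361680, in 2 intervals, for Stmn4. Crmp1 lay at chr5:37291209-37292163. Dpysl3 lay at chr18:43320979-43324331, and no sequence is given for either CRMP gene.

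Reads on distinct 3′ UTR rows numbered 1489528 to 11677046 per library (median 5750402), and the 4 shallowest, all of D6, held 1489528 to 1966286. Marker genes were read in the libraries without 4sU to check the labels of the states. Summed over 10 neuron markers, the level was 538 to 760 CPM (reads scaled to library size) at D0 and 4899 to 6025 at D6, and 8 of the 10 rose. Summed over 7 pluripotency markers it was 264 to 370 CPM at D0 and 1.11 to 1.87 at D6, and the 3 that could be tested fell. Summed over 6 neural progenitor markers it was 1195 to 1391 CPM at D0 and 1778 to 1826 at D6, where Vim averaged 999 and Sox2 541 CPM. Progenitor markers thus remained present at D6. Glial markers summed to 3.30 to 43.5 CPM at D0 and 23.8 to 44.8 at D6. Of the 8 glial genes, Olig2, Aqp4, S100b, Mog and Aldh1l1 were at 0 in all 6 libraries. Levels are compared between states and not between genes, because 3′ end reads are not scaled by length. In these bulk samples, a larger share of cells of a type and more RNA per cell cannot be told apart.

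The first comparison asked how the levels of these mRNAs differ between D6 and D0 cells that received no 4sU. Levels rose for 9 of the 10 genes, by 2.26 to 7.81 on the log2 scale, and Stmn1 alone did not pass the test (edgeR quasi-likelihood test, 16091 transcripts). Among all transcripts tested, 7.74% rose and 5.40% fell, with a median log2 fold change of -0.04 over all and 3.92 over the 10 members. In all 10 genes, every D6 library lay above every D0 library, against 19.9% of all transcripts. The 9 rises were called under each alternative analysis and with each library left out in turn.

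Of the structural MAPs, Map2 stood at 16.1, 13.7 and 28.5 CPM in the D0 libraries and at 702, 794 and 791 CPM at D6. The groups lay far apart, with a log2 fold change of 5.25 (SE 0.34, adjusted p = 5.72e-06, n = 3). Map1b was already present at D0, at 101.45, 200.3 and 134.8 CPM, and reached 719, 836 and 623 CPM at D6. Its difference, 2.26 on the log2 scale (SE 0.31, adjusted p = 0.000835), was the smallest of the 9 called. Mapt was near absent at D0, at 4.62, 10.4 and 1.97 CPM from 20 to 76 reads, and stood at 848, 1048 and 821 CPM at D6. The log2 fold change was 7.27 (SE 0.59, adjusted p = 2.65e-05).

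Dcx showed the largest fitted difference. It stood at 3.42, 11.8 and 2.27 CPM at D0 and at 1266, 1333 and 1423 CPM at D6, a log2 fold change of 7.81 (SE 0.64, adjusted p = 2.65e-05). The D0 library numbered 56 was the highest of its group for Dcx, Mapt, Dpysl3, Map1b and Stmn3. Without it, log2 fold changes at D6 were 8.84 for Dcx, 8.06 for Mapt and 5.39 for Dpysl3.

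The stathmins split. Stmn1, the member common in dividing cells, was at 109, 125 and 142 CPM at D0 and at 167, 148 and 197 CPM at D6. The ranges did not overlap, but the log2 fold change of 0.40 (SE 0.28, interval of 2 SE -0.15 to 0.96) did not pass the test (adjusted p = 0.435). Stmn2, known from axon growth and repair, was at 223.319, 203.9 and 203.8 CPM at D0 and at 1103, 906 and 1164 CPM at D6. Its log2 fold change was 2.28 (SE 0.23, adjusted p = 0.000105). Stmn3 went from 28.7, 44.9 and 28.3 CPM to 285, 358 and 353 CPM, a log2 fold change of 3.23 (SE 0.32, adjusted p = 0.000108). Stmn4 was close to the limit of counting at D0, at 0.18, 0.41 and 3.84 CPM from 2, 3 and 39 reads, and stood at 203, 284 and 190 CPM at D6. The log2 fold change of 7.18 (SE 0.89, adjusted p = 0.000469) therefore rests on few D0 reads, and was 9.50 without the D0 library numbered 57, which held the 39 reads.

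Both CRMP genes rose. Crmp1 was at 24.2, 11.95 and 20.7 CPM at D0 and at 175, 70.1 and 225 CPM at D6, with a log2 fold change of 3.01 (SE 0.49, adjusted p = 0.00249) and the widest relative spread at D6 of the 10 genes. Dpysl3 was at 25.9, 81.6 and 27.9 CPM at D0 and at 1103, 1340 and 1001 CPM at D6, with a log2 fold change of 4.61 (SE 0.48, adjusted p = 0.000152).

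**Figure D1:**
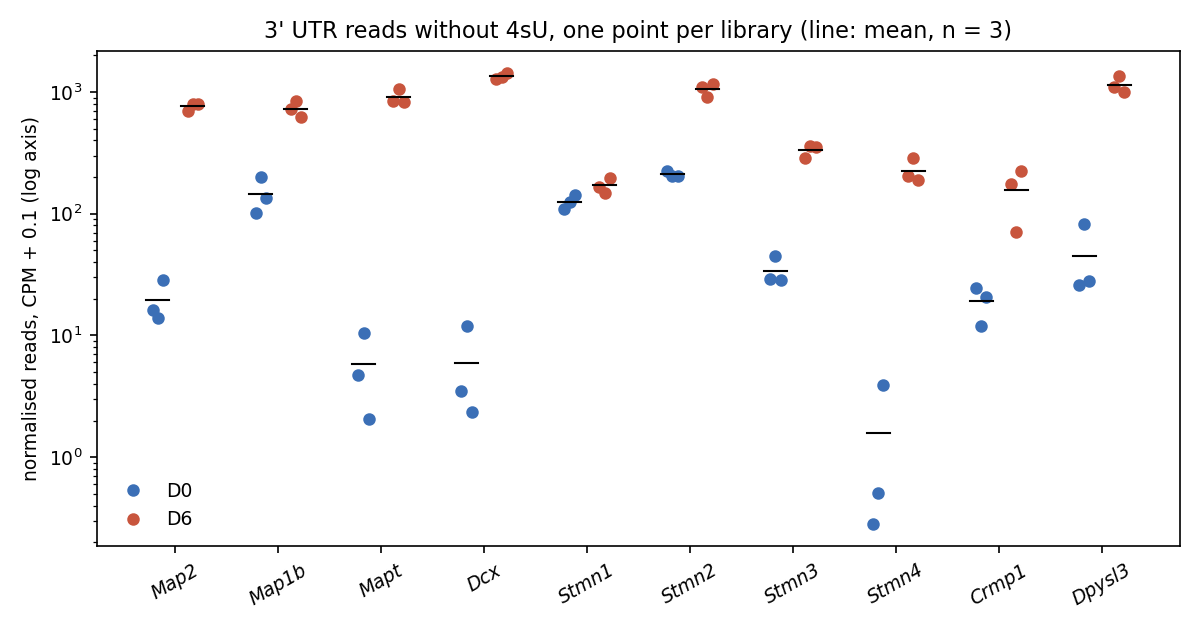
Normalised 3′ UTR reads (CPM + 0.1, log axis) of the 10 genes in the 3 D0 and 3 D6 libraries without 4sU, 1 point per library with a line at the mean. Dcx, Mapt and Stmn4 start below 12 CPM in every D0 library and exceed 180 CPM in every D6 library, while the Stmn1 points lie between 109 and 197 CPM.

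The same contrast was taken at the other 7 matched time points, with or without 4sU in the medium, in a fit of all 47 libraries over 20699 transcripts. The 9 genes rose in each of the 7, and Stmn1 in none. In the anabolic assay, 5.75%, 6.43% and 5.76% of all transcripts rose at 3, 6 and 9 h. In the catabolic assay, 5.54%, 5.16%, 7.03% and 5.90% rose at 0, 3, 6 and 9 h. Over the 7 contrasts the log2 fold change ran from 7.64 to 9.23 in Dcx, from 7.22 to 9.10 in Mapt and from 6.60 to 10.18 in Stmn4, the 3 genes nearest to 0 at D0. It ran from 5.06 to 5.97 in Map2, 4.45 to 5.48 in Dpysl3, 2.80 to 4.16 in Stmn3, 1.92 to 3.60 in Crmp1, 1.77 to 2.48 in Map1b and 1.504 to 2.30 in Stmn2. Stmn1 ran from -0.28 to 0.63, on both sides of 0. At the third time point of the chase the median of all transcripts was itself shifted by -0.82. Those 2 D6 libraries are among the 4 with the fewest reads, and Stmn1 fell to 2.24 CPM, from 4 reads, in the library numbered 14.

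**Figure D2:**
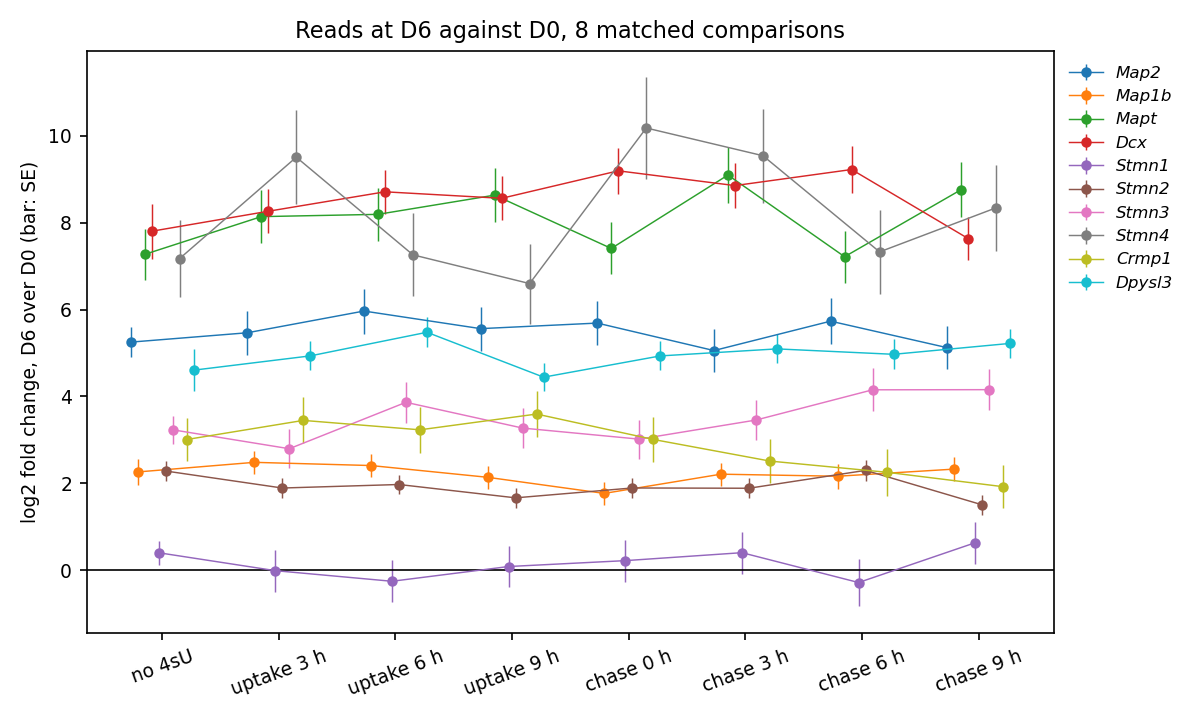
Log2 fold change of reads at D6 over D0 (y axis, bars are SE) for the 10 genes in the 8 matched comparisons (x axis; "uptake" is the anabolic and "chase" the catabolic assay). Lines join the values of 1 gene; 9 genes lie above 1.4 in all 8 comparisons and Stmn1 lies between -0.28 and 0.63.

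Whether 4sU itself moved these mRNAs was asked by comparing 15 h of 4sU with none. No member was called at D0, where 0.0342% of 17569 transcripts were, or at D6, where 0.0569% were. No transcript (0%) was called for a difference of this effect between the states, where 846 had an unadjusted p below 0.05 and DESeq2 called 75. In the D0 libraries Dcx fell short of the threshold at a log2 difference of -1.67 (SE 0.46, adjusted p = 0.512) and Stmn4 at -3.01 (SE 1.00, adjusted p = 0.797). With no filter on low counts both were called. At D6 the largest differences among the members were -0.71 in Stmn1 (SE 0.29, adjusted p = 0.847) and -0.51 in Stmn2 (SE 0.23, adjusted p = 0.866).

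During the chase the reads of the members also did not pass the test between 0 and 9 h. At D0, 0% of 20699 transcripts were called, with 752 at an unadjusted p below 0.05, 3 of them members, and at D6 0.0580% were called. Mapt showed a log2 difference of 0.84 (SE 0.45, adjusted p = 0.505) and Crmp1 of -0.91 (SE 0.49, adjusted p = 0.505) at D6. In D0, Dcx showed 1.52 (SE 0.44, adjusted p = 0.672). This comparison was added after the data were seen.

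The conversion rate, the share of covered T positions read as C, was next compared between 15 h of 4sU and none. All 10 members gained label at D6, as did 80.8% of the 14426 transcripts whose covered T positions averaged 1000 or more. At D0, 8 of the 10 did, against 61.6% of all. Without 4sU the mean rate at D6 ran from 0.0046% in Stmn3 to 0.28% in Dpysl3, over 3 libraries. It was highest in Dpysl3 (0.17%, 0.48% and 0.19%) and Stmn4 (0.21%, 0.33% and 0.27%). The background thus differed between genes. In Dpysl3 it was 0.25% ± 0.19 at D0 and 0.28% ± 0.17 at D6 (SD, n = 3).

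After 15 h at D6 the members held similar rates, from 3.58% ± 0.88 in Mapt to 5.55% ± 0.51 in Stmn4 (SD, n = 3), beside 4.65% ± 0.35 over all 3′ UTRs. Map1b (4.86%, 4.99% and 4.59%) and Stmn3 (4.64%, 4.24% and 4.37%) varied least between libraries. Stmn1 (4.35%, 5.07% and 2.53%) and Mapt (4.37%, 3.72% and 2.63%) varied most relative to their means, both lowest in the library numbered 09.

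At D0 the rates after 15 h scattered far more than the rate over all 3′ UTRs, which was 1.42% ± 0.06. Map2 gave 1.67%, 5.37% and 0.11% in the 3 libraries, Crmp1 0.16%, 2.01% and 3.72%, and Dcx 0.84%, 6.58% and 3.02%. These values rest on 19 to 96 reads for Map2, 100 to 138 for Crmp1 and 7 to 15 for Dcx. Map1b, with 769 to 1616 reads, gave 1.04%, 1.99% and 1.10%. The gain of label in Dpysl3 (log2 difference 2.11, adjusted p = 0.0265) was not called without the D0 libraries numbered 25 (1.204, adjusted p = 0.267), 55 (2.01, adjusted p = 0.0678) or 56 (1.69, adjusted p = 0.103). Mapt (1.72, adjusted p = 0.166) was called only without library 25 (2.58, adjusted p = 0.0440) or 57 (3.96, adjusted p = 0.0136). Stmn4 had 0, 2 and 1 reads in these libraries, so no rate is given for it.

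The loss of label over the 9 h chase was the study's measure of mRNA decay. At 3 h the rate over all 3′ UTRs still stood at 100.96% ± 11.2 of its 0 h mean at D6. At D6 the 3 structural MAPs passed the test for a loss of label, 3 of 10 members beside 34.6% of all transcripts. Which members passed depends on the coverage minimum, set at a mean of 1000 covered T positions, and differences between genes were not tested. Mapt was not called with a minimum of 100, which left 2 members, and 4533 of 18691 transcripts were called for a loss there. Dcx was called as well with a minimum of 10000, which made 4 members, and 3116 of 4724 transcripts were called for a loss there. Map1b went from 4.86%, 4.99% and 4.59% at 0 h to 1.09%, 0.30% and 0.89% at 9 h, a log2 difference of -2.66 (SE 0.64, adjusted p = 0.00257, edgeR). Map2 went from 5.42%, 4.798% and 3.66% to 0.76%, 1.19% and 0.40%, a log2 difference of -2.56 (SE 0.64, adjusted p = 0.00358). The 9 h libraries lay below all 0 h libraries in both genes, as they did in 9 of the 10 members (all but Stmn1) and in 55% of all transcripts (7941 of 14426). Mapt went from 4.37%, 3.72% and 2.63% to 0.65%, 1.00% and 0.81%, a log2 difference of -2.12 (SE 0.82, adjusted p = 0.0385). Its call did not hold without library 07, 08, 16, 17 or 18, where the log2 difference was -1.95 to -2.29 and the adjusted p 0.0657 to 0.0981.

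For the other members at D6, the log2 differences were -2.47 in Stmn4 (SE 1.18, adjusted p = 0.0841), -1.496 in Crmp1 (SE 1.21, adjusted p = 0.287), -1.38 in Dcx (SE 0.58, adjusted p = 0.0540) and -1.34 in Stmn3 (SE 1.07, adjusted p = 0.280). They were -1.23 in Stmn2 (SE 0.66, adjusted p = 0.117), -1.09 in Dpysl3 (SE 0.74, adjusted p = 0.206) and -0.70 in Stmn1 (SE 1.21, interval of 2 SE -3.12 to 1.72, adjusted p = 0.624). A miss of the threshold does not show that these mRNAs kept their label. The median over the 10 members was -1.44, beside -3.05 over all transcripts.

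**Figure D3:**
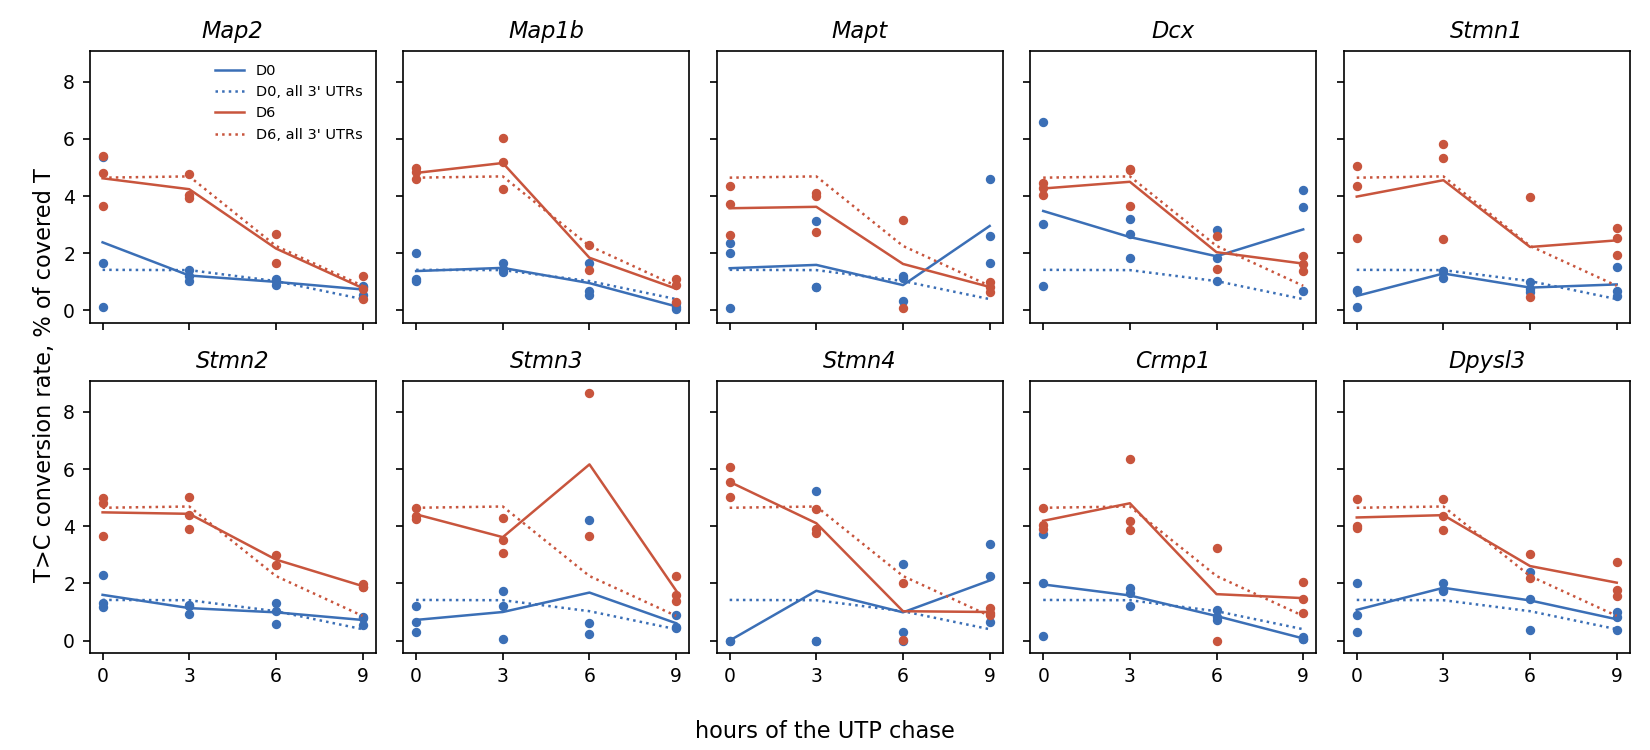
T>C conversion rate (y axis, percent of covered T positions) over the hours of the UTP chase (x axis) for each gene, with 1 point per library, solid lines through the means of D0 and D6 and dotted lines for all 3′ UTRs together. At D6 the rate over all 3′ UTRs goes from 4.65% at 0 h to 0.86% at 9 h, and Stmn1, at 2.45%, ends furthest above it.

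As a share of the mean 0 h rate, the label left at D6 after 9 h was lowest in Map1b (15.8% ± 8.5, SD, n = 3), Map2 (16.95% ± 8.5) and Stmn4 (18% ± 2.3), followed by Mapt (22.99% ± 4.9). It was 35.4% ± 12.7 in Crmp1, 38.4% ± 6.2 in Dcx, 39.6% ± 10.3 in Stmn3, 42.5% ± 1.5 in Stmn2 and 47.02% ± 14.7 in Dpysl3, and highest in Stmn1 (61.6% ± 12.1). All 3′ UTRs together kept 18.6% ± 1.5, and the median transcript of 12456 kept 11.7%. Neighbors in this order overlapped in their libraries throughout. The libraries of Map1b, Map2 and Stmn4 (6.33% to 25.7%) all lay below those of Dcx, Stmn3, Stmn2, Dpysl3 and Stmn1 (31.2% to 72.7%). In the distribution over transcripts at D6 and 9 h, the members stood between the percentiles 61 (Map1b) and 95 (Stmn1), all 10 above the median. At the third time point of the D6 chase, with 2 libraries, Stmn4 was below the median at percentile 41.9, and the other 9 ran from 58.5 (Map1b) to 92.9 (Stmn3). At D0 and 9 h, 7 members had at least 1000 covered T bases. Crmp1 (percentile 16.7) and Map1b (36.5) were below the median of 13082 transcripts there, and the other 5 ran from 69.4 (Map2) to 97.1 (Stmn1). By mean label left at D6 and 9 h, Stmn4 sat with the structural MAPs and below the other 3 stathmins. Differences between genes were not tested.

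Relative to the overall rate of each library, no member was called for label loss in either state (0.298% of all transcripts at D0 and 0.146% at D6). On that scale Map2 differed at D6 by -0.14 (SE 0.60), Map1b by -0.23 (SE 0.60) and Stmn4 by -0.04 (SE 1.10), each within 1 SE of 0. Stmn2 differed by 1.21 (SE 0.63, adjusted p = 0.363), Dpysl3 by 1.34 (SE 0.73, adjusted p = 0.401), Dcx by 1.05 (SE 0.58, adjusted p = 0.413) and Stmn1 by 1.75 (SE 1.22, adjusted p = 0.547). The median transcript differed by -0.64.

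**Figure D4:**
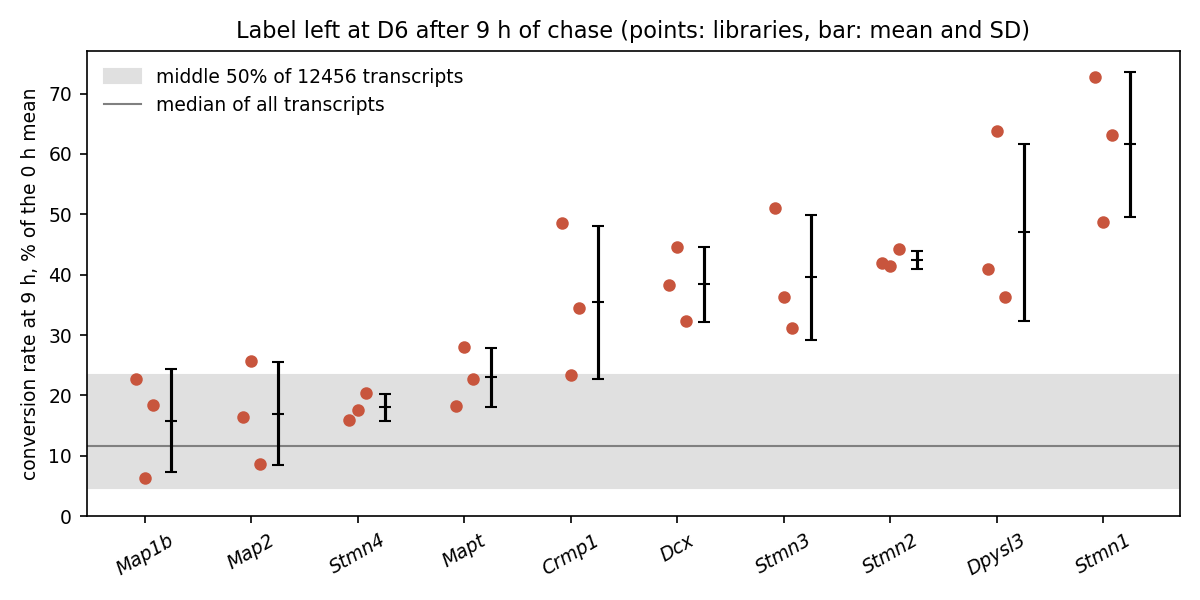
Conversion rate at 9 h of the chase as percent of the mean 0 h rate (y axis) for the 10 genes in increasing order (x axis), with 1 point per D6 library and the mean and SD beside them. The gray band is the middle 50% of 12456 transcripts (4.65% to 23.4%) and the line their median (11.7%); the means of Map1b, Map2, Stmn4 and Mapt lie in the band and those of the other 6 genes above it.

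At D0 the comparison of 9 h with 0 h called 3 members, Map1b, Crmp1 and Map2, against 20.9% of all transcripts. Map1b went from 1.04%, 1.99% and 1.10% to 0.12%, 0.05% and 0.25%, with no overlap, as in 42.8% of all transcripts, and a log2 difference of -3.29 (SE 0.67, adjusted p = 0.000827). It was called without any 1 library. Crmp1 ended at 0.11%, 0.06% and 0.05%, below all 0 h libraries, with a log2 difference of -4.75 (SE 1.42, adjusted p = 0.0191). Its adjusted p was 0.0535 to 0.0816 without library 27, 34, 35 or 36. Map2 ended at 0.85%, 0.81% and 0.54%, within the range of its 0 h libraries (log2 difference -1.71, SE 0.64, adjusted p = 0.0475). Its log2 difference was -0.02 without the library numbered 26, and its adjusted p was 0.0509 to 0.130 without library 25, 34, 35 or 36. Nor was it called with a minimum of 100 covered T positions.

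Stmn1 and Stmn2 had more reads at D0 than most members, 467 to 1814 and 866 to 4268 per library. Stmn2 went from 1.17%, 2.31% and 1.31% to 0.83%, 0.54% and 0.79%, with no overlap, but the log2 difference of -1.15 (SE 0.66) did not pass (adjusted p = 0.179). Stmn1 went from 0.69%, 0.72% and 0.11% to 1.53%, 0.51% and 0.69%, a log2 difference of 0.84 (SE 1.22, adjusted p = 0.595). Between them its mean rate was 1.29% at 3 h (1.13% to 1.38%) and 0.80% at 6 h, so that the rate was highest at 3 h and lower afterwards. Stmn1 was the member with the most label left at D6, and at D0 its mean rate at 9 h (0.91%) exceeded that at 0 h (0.51%).

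Whether decay differed between the states was tested as the difference of slopes of the log2 rate over the chase. No member was called, and 0.0141% of 14166 transcripts were. Map1b had slopes of -0.33 log2 units per hour in both states, with a difference of 0.00 (SE 0.10, interval of 2 SE -0.21 to 0.21). Stmn2 had slopes of -0.12 at D0 and -0.15 at D6 and the narrowest interval of the difference (-0.15 to 0.10). Map2 had slopes of -0.18 and -0.29 (difference -0.11, SE 0.09, adjusted p = 0.945) and Dpysl3 of -0.08 and -0.13 (difference -0.06, SE 0.10, adjusted p = 0.998).

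The largest differences of slope were those of Mapt, Stmn4 and Crmp1. Mapt had slopes of 0.12 at D0 and -0.26 at D6 (difference -0.38, SE 0.13, unadjusted p = 0.00428, adjusted p = 0.481), from 8 to 77 reads per D0 library of the chase. Stmn4 differed by -0.32 (SE 0.21, adjusted p = 0.884), from 0 to 33 reads per D0 library of the chase, and Crmp1 by 0.26 (SE 0.18, adjusted p = 0.909). Relative to the overall rate of the library, 0.0212% of transcripts and no member were called.

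Label taken up over 9 h, relative to that after 15 h, was compared between the states as newly made RNA. No transcript was called (0%) as measured, and 0% relative to the overall rate, where 825 and 821 had an unadjusted p below 0.05. DESeq2 called 64 transcripts and none of the members. Among the 7 members with at least 1000 covered T bases at D0, the log2 difference ran from -1.04 in Stmn1 (SE 1.71) to 0.55 in Map2 (SE 0.87). At D6 the uptake after 9 h was 107% ± 3.2 of the 15 h rate in Mapt (SD, n = 3), 84.7% ± 19.1 in Dcx and 82.8% ± 17.6 in Dpysl3, beside 78.0% ± 12.9 over all 3′ UTRs. The other 7 had lower means than all 3′ UTRs, from 74.9% ± 33.5 in Map1b to 56.1% ± 28.3 in Stmn3, with SDs that reached 59.6% in Stmn1. The library numbered 53, with the second fewest reads, was the lowest of its group in 9 genes, with Stmn1 at 0.75% and Stmn4 at 3.95% of their 15 h rates. Mapt, at 110%, was the exception and was highest there.

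At the third time point of the D6 chase, the 2 libraries disagreed for many members. Mapt gave 0.08% and 3.18%, Stmn1 3.96% (4 reads) and 0.48%, Crmp1 0.00% and 3.25%, Stmn4 0.03% and 2.02%, and Stmn3 3.67% and 8.65%. Stmn2 (2.66% and 3.01%) and Dpysl3 (3.04% and 2.17%) varied least. The rate over all 3′ UTRs was 2.26% ± 0.04 in these 2 libraries, where single genes scattered more.

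Decay half-lives were fitted as a single exponential and kept where R squared exceeded 0.6. None of the 10 genes gave one at D0, where 14.9% of 14426 transcripts did. At D6, 6 of 10 did, against 12.9% of all. They were 235 min in Stmn4 (SE 37), 335 min in Map2 (SE 69.3), 350 min in Map1b (SE 97.1), 492 min in Dcx (SE 118), 565 min in Stmn2 (SE 106) and 609 min in Dpysl3 (SE 135), beside a median of 240 min over the transcripts kept. With the hours of the labels they were 108 min in Stmn4, 208 min in Map2 and 211 min in Map1b, beside a median of 154 min over the transcripts kept with those hours. From 0 and 9 h alone they were 211 min in Map2 and 203 min in Map1b, beside a median of 170 min. Map2 and Map1b were thus longer than the median of the transcripts kept in these 3 settings, a difference that was not tested. With no minimum of R squared, 56.2% of transcripts were kept and their median was 325 min, close to the 335 min of Map2 and the 350 min of Map1b. Without both libraries of the third time point, an alternative chosen after the data were seen, Mapt (409 min) and Stmn3 (446 min) were kept as well.

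Synthesis half-lives, fitted to the uptake, were kept for Map1b at both D0 (249 min, SE 66.3) and D6 (383 min, SE 88.0). Map2 gave 805 min at D0 (SE 136), which ran from 710 to 1258 min when single libraries were left out, the highest without the library numbered 27, and none was kept without that numbered 26. Crmp1 (594 min, SE 129), Dpysl3 (445 min, SE 102) and Stmn2 (637 min, SE 137) gave one at D6. These have no test. The number of genes kept at D6 was 4, and ran from 0 to 7 when single libraries of the fit were left out.

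Mapt is annotated with 2 nested 3′ UTR rows of the same end, of 3903 and 2912 bases, so that reads of the first 991 bases can be told from those of the part both rows share. At D6 without 4sU, the first part held 38.4%, 46.6% and 32.5% of the Mapt reads. It held 44.5%, 35.6% and 47.2% after 15 h of 4sU and 49.9%, 41.3% and 53.4% after 9 h of chase, and these groups overlapped. Over all D6 groups the lowest shares were 0.14% in library 14 and 4.45% in library 53, the D6 libraries with the fewest reads, and the highest was 55%. The next shallowest, 40 (31.3%) and 15 (26.5%), lay with the other libraries. Thus reads fell in the first part as well as toward the shared end.

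Both parts of the Mapt 3′ UTR lost label over the chase at D6. The rate went from 4.03% ± 1.77 to 0.63% ± 0.31 in the first part and from 3.37% ± 0.42 to 0.90% ± 0.37 in the shared part (SD, n = 3). The difference between the parts lay within the spread of the libraries at both times. At D0 the gene had 56 to 146 reads per group, too few to compare the parts.

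**Figure D5:**
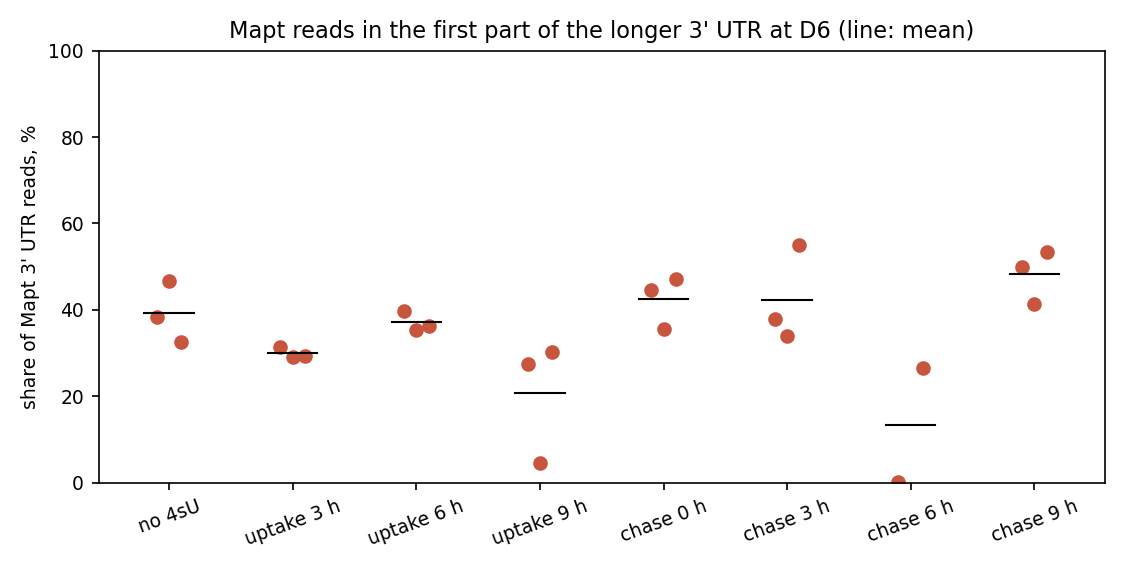
Share of Mapt 3′ UTR reads (y axis, percent) that fell in the first 991 bases of the longer row in each D6 library, by assay and time point (x axis), with lines at the mean. The other 21 libraries lie between 26.5% and 55%, and the 2 lowest points are at 0.14% and 4.45%.

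Dpysl3 reads covered fewer T positions than those of the other members, a median of 10.4 per read at D0 and 9.99 at D6, where the others had 16.9 to 33.7 at D0. A rate for Dpysl3 therefore rests on fewer positions than its reads would imply. In the D0 libraries without 4sU it fell to 4.79 on average, and was 2.35 in the library numbered 56 with the highest Dpysl3 level.

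The other genes of the microtubule cytoskeleton were read as lists, at D6 against D0 without 4sU. Of 9 further structural MAPs tested, 1 rose, Map6, which protects microtubules from cold (8.33 CPM at D0 and 235 at D6, log2 fold change 4.76, SE 1.05, adjusted p = 0.0128). Map6d1 was under the filter, and none fell. Of 6 doublecortin and CRMP relatives, 3 rose, the most in Dpysl4 (6.75 to 105 CPM, log2 fold change 3.92, SE 0.55, adjusted p = 0.000986). The other two were Dclk1 and Dpysl2. The list medians of the log2 fold change were 1.35 for the MAPs and 1.81 for the relatives, beside -0.04 over all transcripts.

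Over all transcripts, 7.74% rose in this test, so 1 of 9 MAPs and 1 of 12 end-binding proteins are near that share. The end-binding protein was the minus-end protein Camsap1 (69.1 to 155 CPM, log2 fold change 1.12, SE 0.33, adjusted p = 0.0473). Nav3 was under the filter and Camsap2 was not analysed here. Of 11 kinases of neuronal MAPs and their activators, 4 rose, the most in Cdk5r1, the p35 activator of Cdk5 (39.02 to 540 CPM, log2 fold change 3.74, SE 0.39, adjusted p = 0.000148). Gsk3b, Mapk8 and Mapk10 were the others, and Mark4 was not analysed here. None of 6 severing proteins tested was called (Katnal2 was under the filter), and none of 8 spindle MAPs (Ccdc69 was under the filter), whose median log2 fold change was -0.68.

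Among the marker lists, the neuron marker with the largest rise was Rbfox3, which encodes NeuN (0.11 to 40.5 CPM, log2 fold change 8.32, SE 1.11, adjusted p = 0.000771). Of 6 neural progenitor markers, 1 rose, Fabp7, at 1.56 CPM at D0 and 122 at D6 (adjusted p = 0.000986). Utf1, a gene of pluripotent cells, fell from 60.6 to 0.19 CPM (adjusted p = 0.000438). Nanog, Zfp42, Dppa5a and Fgf4 were under the filter. Of 3 endoderm or mesoderm genes tested, Acta2 fell from 61.4 to 2.22 CPM (adjusted p = 0.00664), and Gata4, Sox17, Afp, Myh6 and T were under the filter. Their part in the rise of the members was not tested.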

How the data were processed

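SLAM-seq reads of 47 P19 libraries (QuantSeq 3′ end kit, 101 bp) were mapped by the authors to mm10 and counted with SLAMdunk 0.3.3, after calling polymorphisms on the aligned reads. For each of 39419 3′ UTR rows the deposited counts give reads, covered T, conversions and converted reads. The conversion rate, a fraction, and the reads as CPM were also deposited by the authors and were not used here. No read was recorded as multiply mapped, no molecular identifiers are described, and no 2 libraries were identical, so errors come from the spread between libraries.

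Counts were summed over the rows of each RefSeq mRNA transcript (28059 of 28190 paired with a symbol). Transcripts that share a row each carry its reads, so the library totals behind CPM count such reads more than once. Reads were tested with edgeR 4.0.16 (R 4.3.3; TMM, filterByExpr, quasi-likelihood), and conversions likewise with the log of covered T positions as offset, for transcripts whose covered T positions averaged 1000 or more. Adjusted p-values are Benjamini-Hochberg values over all transcripts of a fit, called below 0.05. SE was taken from the F statistic. Half-lives were least squares fits (Python 3.11.15). Alternatives were DESeq2 1.42.0, other normalization, filters, coverage minimums, hours and offsets, 1 transcript per gene and leaving out each library. The labels number libraries without pairing them, and no sequencing batch is given.

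The members and gene lists were chosen with earlier results of these data known. All 10 members are described, and of the other lists the called genes with the largest rise and fall and those absent or under the filter; other names were added after their values were seen. On simulated data, the read test recovered 41% of 4-fold changes (log2 of 2) and 2% of 2-fold changes in 15384 transcripts, with changes drawn from the better-covered ones. For the conversion tests, the first simulation changed 200 transcripts of any coverage by log2 losses of 1 or 2, or by slopes of 0.2 or 0.4 log2 per hour. It recovered none, and repeated with another random draw it recovered 0% of both losses, 0% of slopes of 0.2 and 3% of 0.4. After the first outcome was seen, larger effects were simulated in the better-covered part of the transcripts, with the tests unchanged. The label loss test then recovered 0%, 2%, 0% and 32% of log2 losses of 1, 2, 3 and 5 (14426 transcripts), and the slope test 0%, 10%, 78% and 96% of differences of 0.2, 0.4, 0.8 and 1.2 (14166 transcripts), with 8% of its calls false. In these simulations, with few transcripts changed, the label loss test had little power at every size tried and the slope test at differences of 0.2 and 0.4, so a missed call there says little about a single gene.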

Additional observations from a re-analysis of the deposited data

How the results depend on the processing

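The 9 members called for reads at D6 against D0 stayed 9 with each library left out (9 to 9), and the 63 calls over 7 further contrasts were 63 with no filter or DESeq2 and 62 with each contrast fitted on its own libraries, where Crmp1 was not called at 6 h of the chase. With no filter on low counts, 2 members, Dcx and Stmn4, were called for 15 h of 4sU at D0, and 0 to 0 with libraries left out. Label loss called 3 members in each state, but 0 at D0 and 0 at D6 relative to the overall rate of the library. With libraries left out it called 1 to 2 at D0 and 2 to 3 at D6. Relative to the overall rate, differences at D0 turned to 0.18 in Map2, 1.47 in Dcx, 0.70 in Stmn2, 1.57 in Stmn3 and 1.26 in Dpysl3. At D6 they turned to 0.33 in Mapt, 1.05 in Dcx, 1.75 in Stmn1, 1.21 in Stmn2, 1.08 in Stmn3, 0.93 in Crmp1 and 1.34 in Dpysl3, and the slope difference to 0.059 in Stmn2 and 0.025 in Dpysl3. That offset removes the loss shared by all transcripts by construction. With libraries left out, D0 label loss ran from -0.83 to 0.44 in Dcx, -0.99 to 0.34 in Dpysl3 and -0.67 to 0.34 in Stmn3, and the slope difference of Map1b from -0.067 to 0.057, and these changes of sign were in values that did not pass. The gain of label called 7 to 9 members at D0 and 10 to 10 at D6. Decay half-lives at D0 were kept for 0 members (14.9% of all transcripts), 1 with the hours of the labels (23.2%) and 1 from 0 and 9 h only (34.2%). They were kept for 4 from time point means (45.3%), 5 with no minimum of R squared (70.8%), and 0 to 1 with libraries left out. At D6 6 were kept (12.9% of all transcripts), 10 with no minimum (56.2%), and 5 to 7 with libraries left out. Synthesis half-lives at D0 were kept for 2 members (21.9% of all transcripts) and for 6 with the label hours (43.1%). They were kept for 0 with a free amplitude (1.38%), 9 with no minimum (84.1%), and 0 to 3 with libraries left out. At D6 4 were kept (9.32% of all transcripts), 8 with the label hours (21.7%), 7 from 0 and 9 h only (20.7%) and 2 with background subtracted (8.55%). There were 9 from means (53.7%), 0 with a free amplitude (0.541%), 10 with no minimum (63.2%), and 0 to 7 with libraries left out. The causes were not tested. Over all transcripts, DESeq2 called 3209 against 2115 for reads without 4sU (1253 to 2307 with libraries left out), 112 against 6 and 130 against 10 for 15 h of 4sU at D0 and D6, 5033 against 3025 for label loss at D0 and 122 against 2 for the slopes, which label hours raised to 103 and 0 and 9 h only to 35. Label loss called 413 to 2173 transcripts at D0 and 2447 to 4338 at D6 with libraries left out. Relative to the overall rate, 20 rose and 23 fell at D0, and 15 rose and 6 fell at D6, against 15 and 3010, and 18 and 4992. No paired analysis was possible because the library numbers are unique and pair no samples. Depth limits the D0 rates of Dcx, Mapt and Stmn4.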
